A study of Homo sapiens with 12 samples.

Results

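The cytosolic ribosome is built on 2 subunits, a small one that reads the messenger RNA and a large one that joins amino acids, and its proteins are encoded by genes named RPS and RPL. Members were all RefSeq coding genes whose symbol is RPL or RPS and a number, with an optional A, X or L, together with RPLP0, RPLP1, RPLP2 and RPSA, and without the RPS6 kinase genes. This gave 82 of 20052 coding genes. Each gene was represented by the region with the highest mean over the 6 libraries within 1 kb of either annotated gene end. Such a region was listed for 79 of the 82 genes, against 12344 coding genes in all. RPL10L, a paralogue known from testis, and RPL24 were among those with no listed region there, and the nearest region lay 34525 bp from RPL24. The choice used the level of the mark and no difference between treatments.

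The data are H3K9ac chromatin immunoprecipitation sequencing of MOLM-13, an established line of human acute myeloid leukaemia driven by KMT2A-MLLT3 and mutant FLT3. H3K9ac, acetylated lysine 9 of histone H3, marks active gene starts. The study asked what inhibition of the acetyltransferase KAT6A does to the chromatin of these cells. The 2 groups were 3 libraries of cells labelled DMSO, the solvent, and 3 of cells given WM-1119, a KAT6A inhibitor, at 4 µM for 4 days. Both came from this 1 cell line. Of the 12 samples, 6 are inputs that were not analysed here. Whether the replicates came from separate cultures is not stated in the labels, and p-values therefore reflect only how these libraries vary, which may be technical.

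Ribosomal protein genes are among the most heavily transcribed genes of a growing cell, and their products are needed in nearly equal amounts. Their messenger RNAs begin with a C and a run of pyrimidines, the terminal oligopyrimidine (TOP) tract, through which translation of the whole set responds to mTOR signalling. Loss of 1 copy of several of them causes Diamond-Blackfan anaemia, a failure of red cell production.

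The gene starts show what the members share in sequence beyond their names. RefSeq promoter sequences of build GRCh38.p14, 250 bases before and 50 after each start, were found for 65 of the 82 genes, and 55 of these had a single start. A C followed by at least 4 further pyrimidines, beginning within 5 bases of the start, was present in 54 of the 65 (83.1%). Among 15777 other coding genes the share was 27.8%, and among the 7588 of these whose region lay in the members' range of H3K9ac it was 28.4%. Mitochondrial ribosomal protein genes, whose products form the separate ribosome of that organelle, had it in 16 of 69 (23.2%). The 8 stretches below run from 60 bases before to 15 after the start, on the strand with the same sense as the messenger RNA. They show 6 named members with the tract, in capitals, and 2 without it, RPS4X and RPS27L.
RPLP2: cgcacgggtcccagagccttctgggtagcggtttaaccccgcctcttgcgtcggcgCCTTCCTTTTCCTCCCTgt
RPSA: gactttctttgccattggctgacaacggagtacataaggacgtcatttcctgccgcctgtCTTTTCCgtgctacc
RPS6: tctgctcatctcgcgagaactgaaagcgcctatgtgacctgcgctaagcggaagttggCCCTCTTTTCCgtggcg
RPS14: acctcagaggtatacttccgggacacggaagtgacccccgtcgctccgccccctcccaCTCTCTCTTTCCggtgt
RPL3: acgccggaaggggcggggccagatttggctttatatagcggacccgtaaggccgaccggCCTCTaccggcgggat
RPL13A: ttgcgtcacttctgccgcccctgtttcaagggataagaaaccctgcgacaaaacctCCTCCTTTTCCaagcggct
RPS4X: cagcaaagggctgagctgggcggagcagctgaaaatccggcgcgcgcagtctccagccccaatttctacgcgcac
RPS27L: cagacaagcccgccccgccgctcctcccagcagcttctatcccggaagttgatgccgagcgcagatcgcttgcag

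These stretches lie on the plus strand for RPLP2 (chr11:809907-809981), RPSA (chr3:39406660-39406734) and RPL13A (chr19:49487548-49487622). They lie on the minus strand for RPS6 (chr9:19380222-19380296), RPS14 (chr5:150449725-150449799), RPL3 (chr22:39319609-39319683), RPS4X (chrX:72277234-72277308) and RPS27L (chr15:63157463-63157537). As marked, the tract ran for 17 bases in RPLP2, 12 in RPS14 and 5 in RPL3, and its median length in the 54 genes was 11 bases. The search window can cut a longer run, as in RPL13A, where pyrimidines also stand just before the capitals. Besides RPS4X and RPS27L, the 11 genes without it were RPL6, RPL9, RPL10L, RPL15, RPL17, RPL27, RPS15, RPS26 and RPS29. Runs further from an annotated start were not searched.

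Other promoter motifs were counted on both strands of the same windows, each by its letters alone. The ETS core CCGGAAG was found in 23 of the 65 genes (35.4%), in 16.4% of other coding genes and in 25.3% of those in the members' H3K9ac range. GGGCGG, the core read by SP and KLF factors, was found in 39 of the 65, against 64.3% and 78.5%. TATAAA was found in 6 (9.23%), against 12.4% and 7.64%, and AAGATGGC, a YY1 motif, in 6, against 4.65% and 7.46%. The palindrome around CGCG that stands near the left end of the RPS6 stretch above was found in 4 (6.15%), against 0.704% and 1.29%. Mitochondrial ribosomal protein genes had the ETS core in 43.5% and the YY1 motif in 30.4%, both above the members' shares. They had GGGCGG in 60.9%, TATAAA in 4.35% and the palindrome in 1.45%. A match describes these letters and is not a bound site.

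The H3K9ac regions lay over the gene starts and reached into the genes. For the 63 members with a region and a known strand, the outer end of the gene on the start side lay inside the region in all 63. The RefSeq starts used for the promoter windows all lay inside it in 61, while RPL32 had 2 of 3 inside and RPL6 0 of 2. The extents that follow are counted from the outer gene end. The region extended a median of 955 bp upstream and 2216 bp downstream of that start, and the downstream part was the longer in 58 of the 63 (92.1%). Among 7557 other coding genes with a strand and a region in the same range of means, the start lay inside the region in 92.0%. There the medians were 887 bp upstream and 1427 bp downstream, with a longer downstream part in 76.3%. In 24 of the 63 members the region also came within 1 kb of the end of another coding gene, and then reached 1289.5 bp upstream in the median, against 785 bp for the other 39. RPL36AL had the longest upstream part, 3935 bp, towards its neighbours DNAAF2 and MGAT2. RPL13 had the longest downstream part, 3950 bp.

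**Figure D1:**
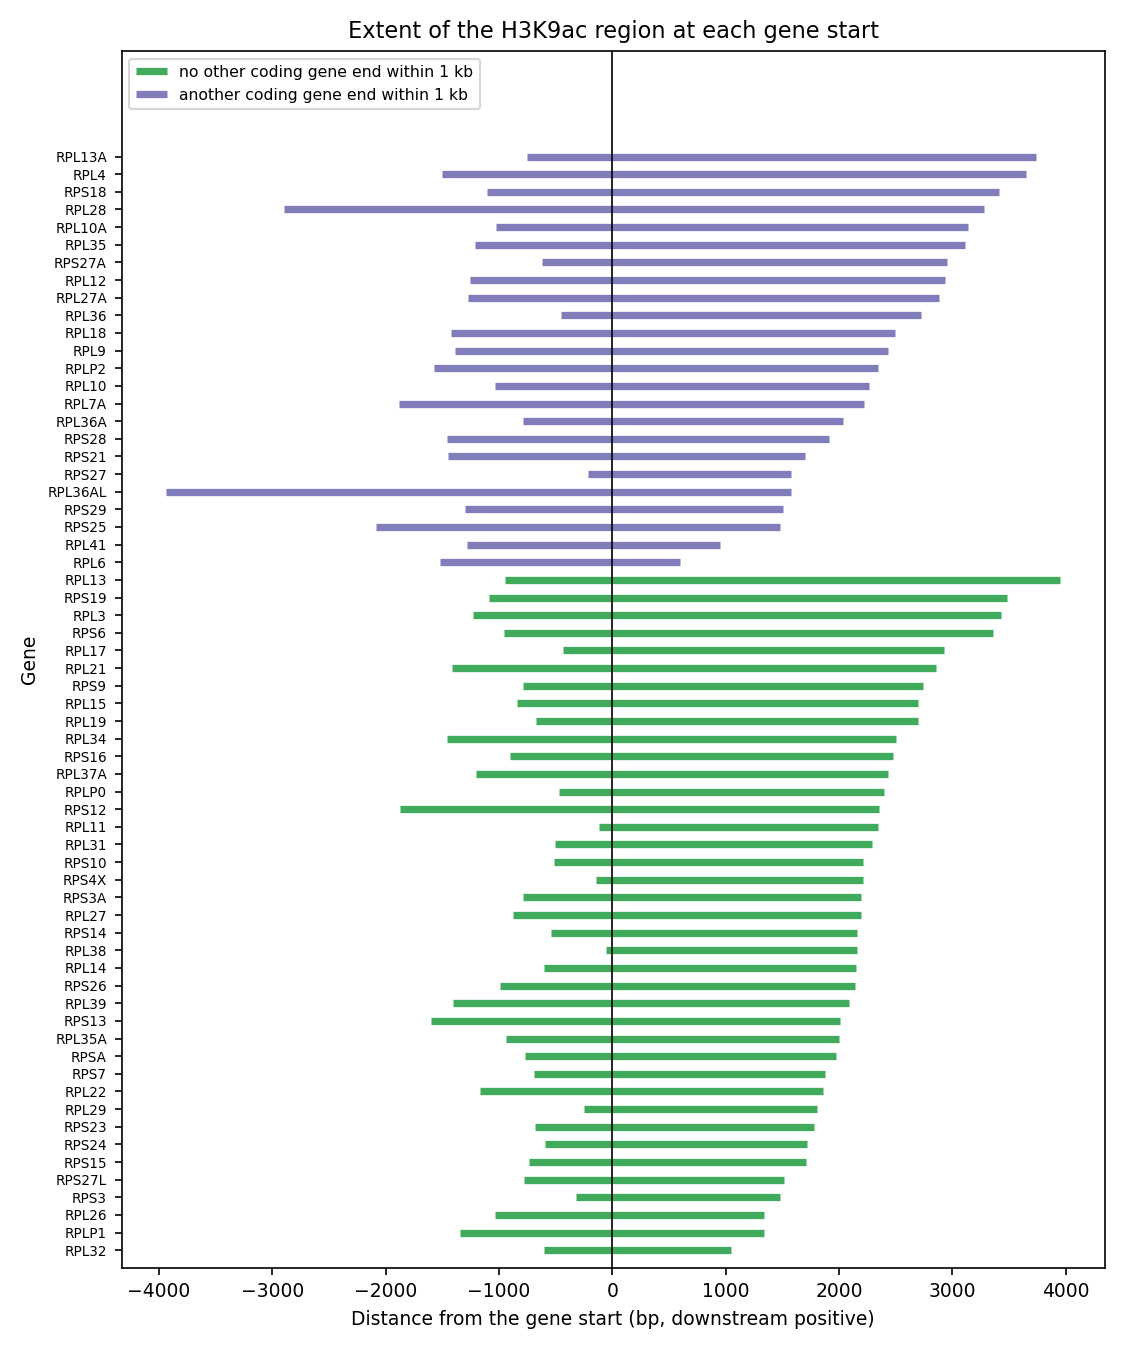
Extent of the H3K9ac region around the outer gene end on the start side (x axis, bp, downstream positive) for the 63 members with a known strand, 1 bar per gene. The downstream part is the longer in 58 of 63; purple bars mark the 24 regions that also lie within 1 kb of another coding gene end.

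Members' regions were strong and wide. Their means over the 6 libraries ran from 25.7 CPM at RPL39L to 499.8 CPM at RPL7 (CPM, reads per 1000000 reads in the listed regions), with a median of 121 CPM. The median region standing for another coding gene had 52.4 CPM, and 76 of the 79 members lay at or above it. A mean of at least 100 CPM was reached by 50 of the 79 members (63.3%) and by 20.7% of the 10316 other gene-end regions. The members were also closer to each other: their upper quartile was 1.84 times their lower quartile, against 4.25 times for the other gene ends. Their median width was 3370 bp, against 401 bp for all 47648 regions and 2354 bp for the 7372 other gene-end regions in the members' range of means. Wider regions had higher means, with a Spearman's rho of 0.73 over the 79 members and 0.77 over those 7372 regions, which share the libraries. Set against the 50 gene-end regions nearest in mean CPM, the median member was 1.09 times as wide.

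The order of the members was much the same in every library. Spearman's rho between 2 libraries over the 79 members lay between 0.90 and 0.99, and between the DMSO and WM-1119 means it was 0.98. These are descriptions over genes that share each library. RPL7 was at the top in each of the 6 libraries, at rank 39 of all regions, and RPL39L at the bottom. RPL13A, RPL8, RPL21 and RPL30 followed RPL7, at ranks 173, 196, 199 and 256.

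Libraries differed in depth and background. Reads in regions ranged from 719329 in DMSO replicate 1 to 12705349 in WM-1119 replicate 3. DMSO replicates 1 and 2 held 8.95% and 7.19% of CPM in the regions whose mean lay below the median region, against 2.19% to 3.35% in the other 4 libraries. A member had a median of 67 reads in DMSO replicate 1 and 1581 in WM-1119 replicate 3, and RPL39L, the weakest, had 14 and 353, so single values of DMSO replicate 1 are the least precise. Markers fitted the label: all 8 genes of the myeloid leukaemia list, SPI1 among them, had regions with means of 79.4 to 1048 CPM, 1 of them shared by HOXA9 and HOXA10. No T cell, B cell, epithelial or fibroblast marker had a mean above 4.83 CPM or a value above 9.73 CPM in any library, and the erythroid markers GATA1 and HBB had no tested region.

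H3K9ac at no ribosomal protein gene passed the test of WM-1119 against DMSO, where 0.0603% of all 44763 tested regions passed, all of them lower (limma, adjusted p under 0.05 by the Benjamini-Hochberg method). All 79 members passed the filter of a mean of at least 1 CPM. The members' adjusted p ran from 0.339 to 0.996. Unadjusted, 6 of the 79 (7.59%) had a limma p under 0.05 and all 6 were higher. Of all tested regions 13.3% reached that level, 2.58% higher and 10.8% lower, and of the 7372 gene-end regions in the members' range 13.4% did. edgeR on recovered reads of 5 libraries called 0 members, with 0 at an unadjusted p under 0.05, a level that 4.74% of all regions reached.

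As deposited, 65 of the 79 members had a higher WM-1119 mean on the log2(CPM + 1) scale and 14 a lower one, but 24 were higher with quantile normalization, 14 with centring on strong gene ends, 79 with median centring and 31 without DMSO replicate 1. The median log2 change of the members was 0.11. It was 0.17 over the 7372 gene-end regions of the same range, of which 82.3% were higher, and -0.47 over all tested regions. The share of members that were higher, 82.3%, thus equalled that of gene ends in the same range of means. Those regions were weaker within that range, with a median of 74.5 CPM in DMSO replicate 3 against 135 CPM for the members. Ratios of the WM-1119 to the DMSO mean ran from 0.869 to 1.32.

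Where the members stood out from that range was in the order of the libraries. The median member had 93.1, 110 and 135 CPM in DMSO replicates 1, 2 and 3, and 117, 125 and 124 CPM in the WM-1119 replicates in the same numbering. DMSO replicate 3 was thus the highest and DMSO replicate 1 the lowest, with the WM-1119 libraries between them. DMSO replicate 3 gave the highest of the 6 values for 63 of the 79 members (79.7%) and for 22.2% of the gene-end regions in range. DMSO replicate 1 gave the lowest for 64 members (81.0%) and for 51.8% of those regions. For 64 members all 3 WM-1119 values lay below DMSO replicate 3, as they did for 25.8% of the gene-end regions in range and 21.2% of all tested regions. In 56 members all 3 WM-1119 values lay between DMSO replicates 1 and 3. The SD between replicates was larger in DMSO than in WM-1119 for 77 of the 79 members and for 76.1% of the gene-end regions in range. The median ratio of SD to mean over members was 0.217 in DMSO and 0.0772 in WM-1119, against 0.161 and 0.0785 over those regions. The members' share of all CPM was 0.809%, 1.02% and 1.26% for the DMSO libraries and 1.03%, 1.17% and 1.15% for the WM-1119 libraries.

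**Figure D2:**
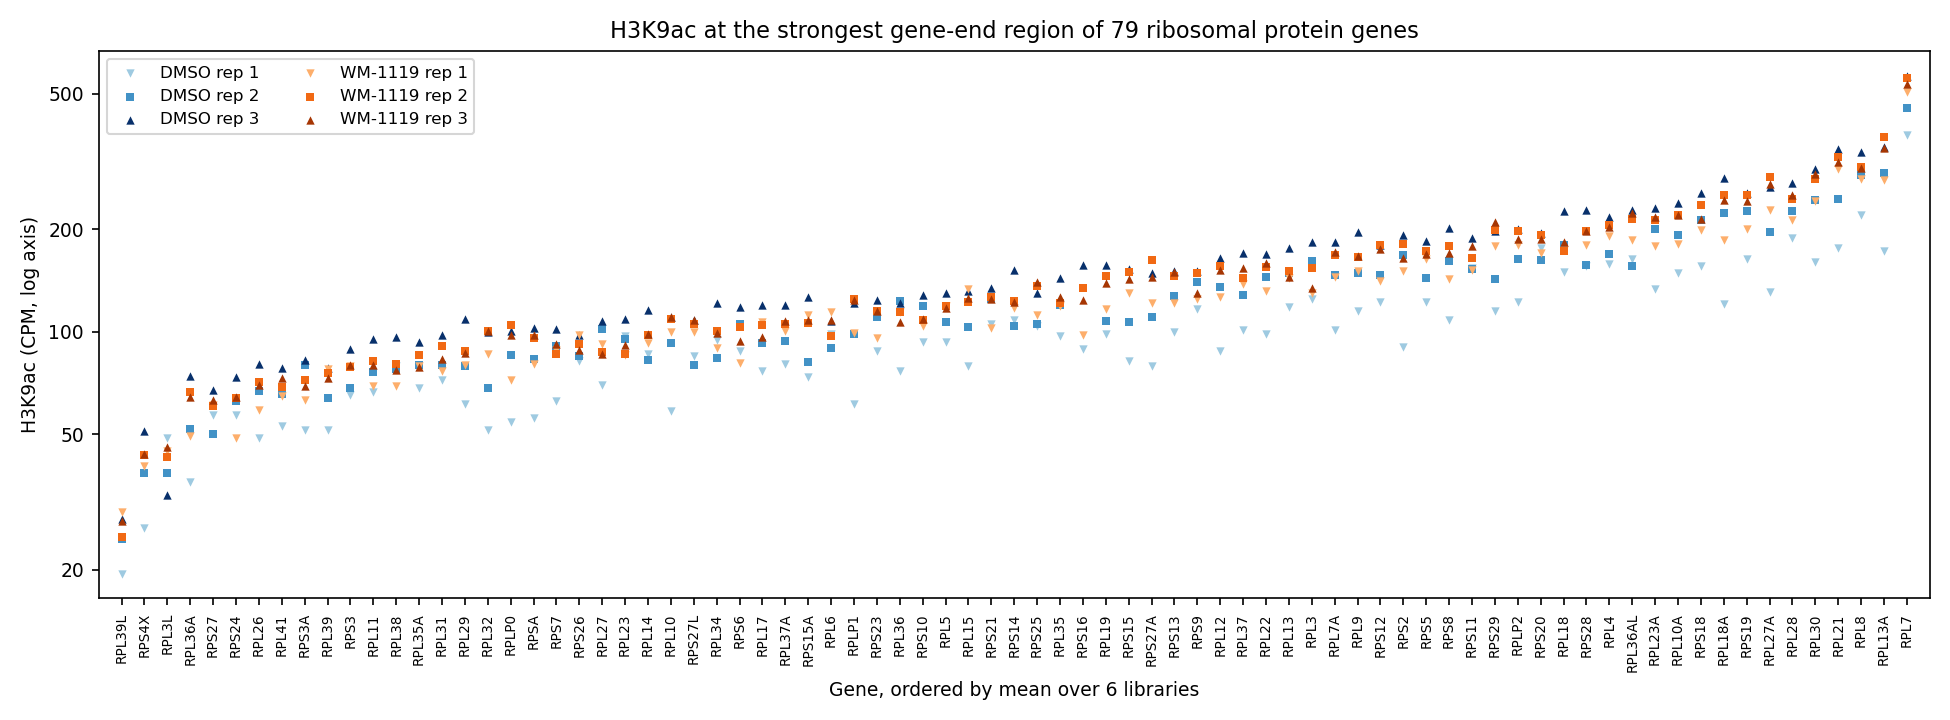
H3K9ac in CPM (y axis, log scale) for 79 ribosomal protein genes ordered by mean (x axis), 1 point per library. Dark blue triangles, DMSO replicate 3, are the highest point for 63 genes, and pale blue triangles, DMSO replicate 1, are the lowest for 64.

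Each member was then set, library by library, against the median of the 50 gene-end regions of other coding genes nearest to it in mean CPM, which share its strength. The median log2 difference over members was -0.06, 0.08 and 0.13 in DMSO replicates 1, 2 and 3, and it was -0.13, 0.01 and -0.03 for the WM-1119 replicates in the same numbering. The number of members above their comparison regions was 30, 58 and 74 of 79 in the DMSO libraries and 9, 44 and 28 in the WM-1119 libraries. The groups of these 6 medians overlapped, since DMSO replicate 1 lay below WM-1119 replicates 2 and 3. Their means were 0.05 ± 0.10 in DMSO and -0.05 ± 0.07 in WM-1119 (SD, n = 3 each), a difference of -0.11 that is about the size of the spread between replicates. Per gene, 57 members were lower in WM-1119 against their comparison regions and 22 higher, with a median of -0.09 and a range of -0.39 to 0.26. The same measure over the 7372 gene-end regions had a median of 0.01, quartiles of -0.11 and 0.11, and 48.0% lower.

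**Figure D3:**
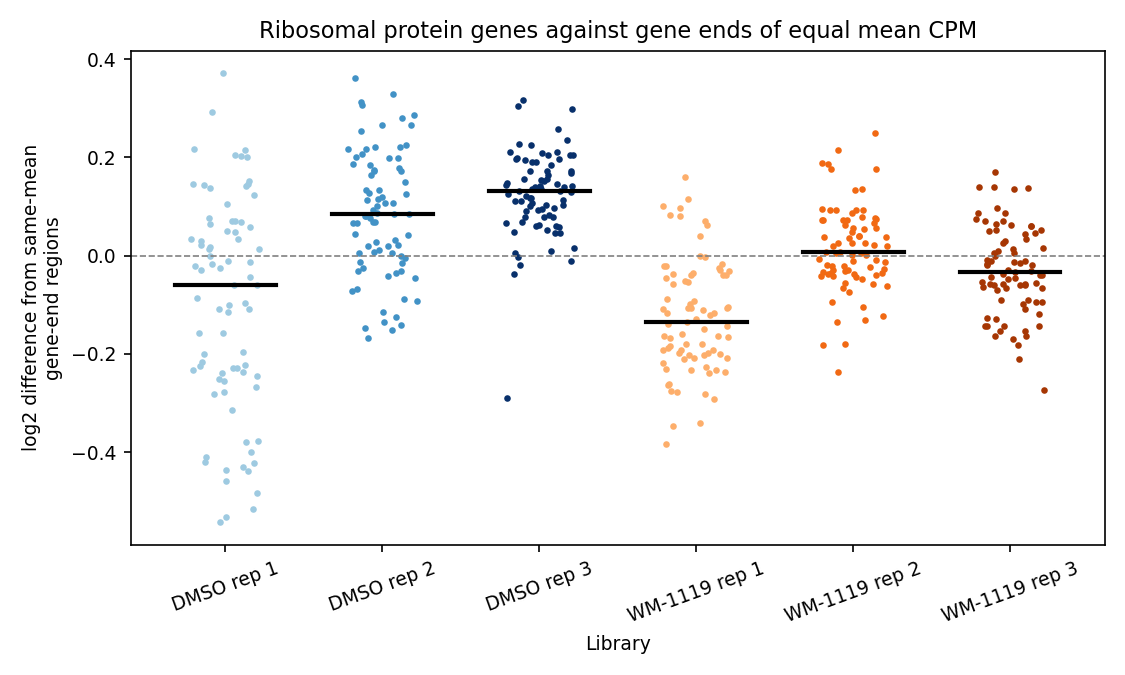
log2 difference of each ribosomal protein gene from the median of the 50 gene-end regions nearest in mean CPM (y axis), by library (x axis); each point is 1 of 79 genes, black lines are medians and the dashed line marks no difference. The median is highest in DMSO replicate 3 (0.13) and lowest in WM-1119 replicate 1 (-0.13).

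Because DMSO replicates 1 and 2 carried more background, the comparison was repeated with DMSO replicate 3 as the only control, which takes its variance from the spread of the WM-1119 libraries. Here 78 of the 79 members were lower in WM-1119 (98.7%), all but RPL3L, against 48.1% of the gene-end regions in range. As DMSO replicate 3 was already the highest library for 63 members, this restates the order of libraries and is not separate evidence. The median log2 change was -0.19 for the members and 0.01 for those regions. None of the 79 passed the adjusted threshold, as 0% of 35536 regions did, with a lowest limma adjusted p of 0.789 among the members. At an unadjusted p under 0.05, 11 members were lower and RPL3L was higher, where 2.05% of all tested regions and 2.28% of gene-end regions in range were lower. RPL3 (-0.40), RPS6 (-0.35), RPL38 (-0.36), RPS14 (-0.32) and RPL23 (-0.32) were among the 11 (log2 change). These values rest on 1 DMSO library. With DMSO replicate 3 left out instead, 22 members passed and all 22 were higher, where 43.2% of regions passed and 5.28% passed as higher. The median log2 change was then 0.28 for the members, 0.25 for gene-end regions in range and -0.80 for all tested regions. How many gene-end regions in range passed in this setting was not counted. RPL27A (log2 change 0.70), RPL32 (0.68), RPS29 (0.60) and RPS27A (0.60) were among the 22. The direction of the members' median thus differed with the DMSO libraries used.

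**Figure D4:**
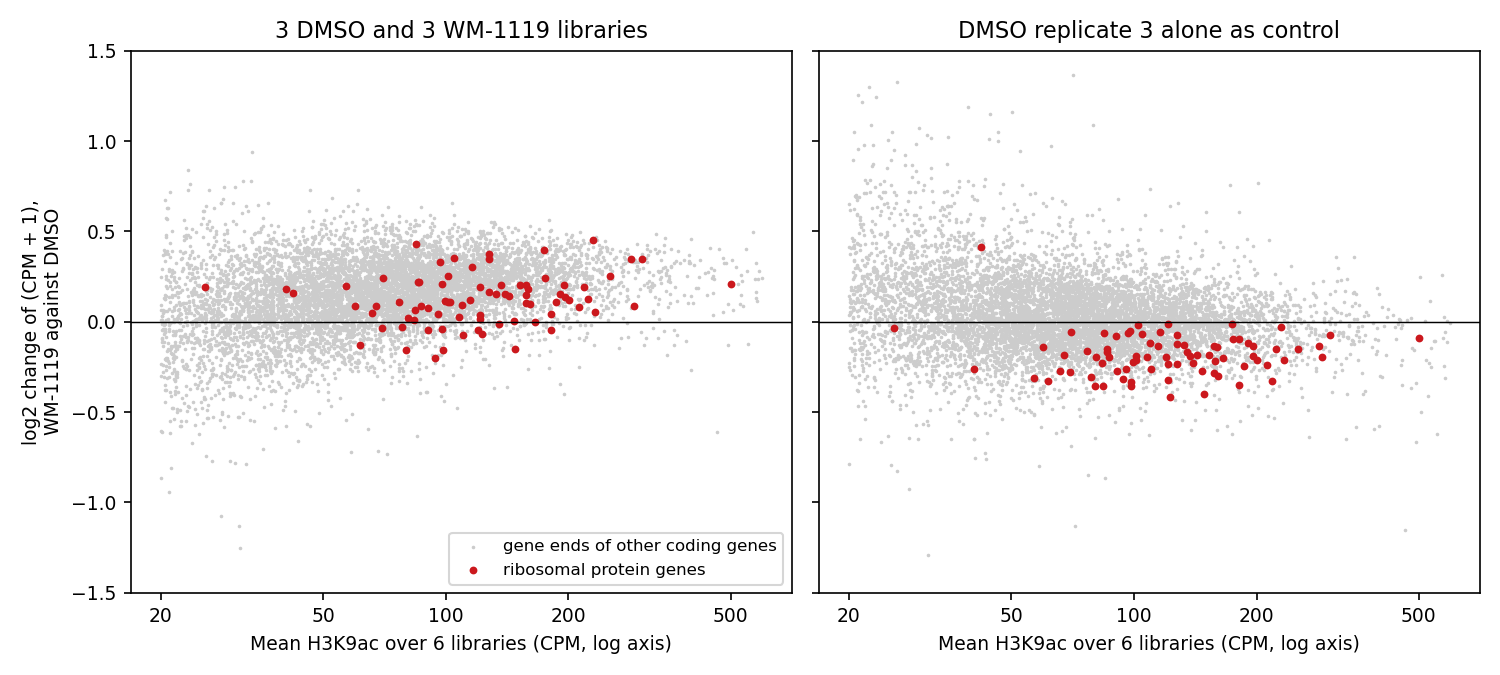
log2 change of (CPM + 1), WM-1119 against DMSO (y axis), by mean H3K9ac in CPM (x axis, log scale), for 79 ribosomal protein genes (red) and gene-end regions of other coding genes (grey). With all libraries (left) 65 red points lie above 0; with DMSO replicate 3 as the only control (right) 78 lie below 0.

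Stalk proteins form the flexible arm of the large subunit that recruits translation factors. RPLP0, the base of the stalk, had 54.2, 85.5 and 100.4 CPM with DMSO and 72.2, 104.6 and 97.5 CPM with WM-1119. RPLP1 had 61.2, 98.6 and 121 CPM with DMSO and 99.3, 125 and 124 CPM with WM-1119. RPLP2 had 122, 163 and 201 CPM with DMSO and 180, 197 and 188 CPM with WM-1119. In each of the 3 genes DMSO replicate 1 was the lowest library and the groups overlapped. Their log2 changes were 0.22 ± 0.19, 0.35 ± 0.18 and 0.24 ± 0.16 (SE), and none passed (limma adjusted p 0.376 to 0.504).

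Among 42 other genes of the large subunit, 35 were higher and 7 lower as deposited, a direction that turned with scaling for the whole set, and 0 passed, with a median log2 change of 0.11. RPL3, which lies close to the site of peptide bond formation, had 125, 162 and 184 CPM with DMSO and 130, 154 and 135 CPM with WM-1119. Its region, at chr22:39316198-39320854, had the lowest log2 difference between groups against comparison regions, -0.39, while its own log2 change of -0.15 ± 0.16 (SE) was within the error (limma adjusted p = 0.568). RPL23, a surface protein that can bind MDM2, had 97.3, 95.5 and 109 CPM with DMSO and 85.2, 85.9 and 91.1 CPM with WM-1119. It was the only member of the 79 whose groups did not overlap, where 16.9% of all tested regions did not, 13.2% with WM-1119 lower and 3.76% with it higher. Of gene-end regions in range 1.94% were lower and 17.6% higher without overlap, and 0 members were higher in this way. The log2 change of RPL23, -0.20 ± 0.17 (SE), was the lowest of the members (limma adjusted p = 0.501). RPL38, tied to the translation of homeobox messages in development, had 79.2, 77.8 and 96.8 CPM with DMSO and 69.1, 80.5 and 77.0 CPM with WM-1119, with overlapping groups and a log2 change of -0.16 ± 0.18 (SE).

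Higher values were seen at RPL27A, with 131, 196 and 266 CPM with DMSO and 227, 285 and 272 CPM with WM-1119. This region also lies near an end of TRIM66. The log2 change of RPL27A, 0.45 ± 0.17 (SE; limma adjusted p = 0.339), was the highest of the members, yet DMSO replicate 3 lay within the WM-1119 range. RPL32 had 51.4, 68.5 and 99.9 CPM with DMSO and 85.9, 100.6 and 100.8 CPM with WM-1119, and a log2 change of 0.43 ± 0.18 (SE). With DMSO replicate 3 as the only control, the log2 changes of these genes were -0.03 and -0.06. RPL21, in a region of 4268 bp, had 177, 246 and 345 CPM with DMSO and 302, 326 and 316 CPM with WM-1119, so DMSO replicate 3 was its highest library.

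RPL5 and RPL11 bind MDM2 together with a small ribosomal RNA when ribosome assembly fails, and both are Diamond-Blackfan genes. RPL5 had 93.1, 107 and 130 CPM with DMSO and 119.3, 119.2 and 118 CPM with WM-1119, a region that also reaches DIPK1A. RPL11 had 66.7, 76.2 and 95.4 CPM with DMSO and 69.3, 82.2 and 79.97 CPM with WM-1119. In both genes the WM-1119 values lay inside the DMSO range, and the log2 changes were 0.12 ± 0.16 and -0.03 ± 0.18 (SE). RPL10, mutated in some T cell leukaemias, had 58.4, 92.4 and 111 CPM with DMSO and 99.5, 109 and 110.5 CPM with WM-1119. RPL22, lost in some T cell malignancies, had 98.7, 145 and 169 CPM with DMSO and 132, 155 and 159 CPM with WM-1119. RPL13A, known also as a translational repressor released from the ribosome, had 172, 292 and 348 CPM with DMSO and 279, 374 and 347 CPM with WM-1119. None of these 3 passed (limma adjusted p 0.384, 0.600 and 0.397). RPL41, whose protein is very short, had 52.8, 65.5 and 78.3 CPM with DMSO and 64.7, 68.9 and 73.3 CPM with WM-1119.

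Among 30 other genes of the small subunit, 23 were higher and 7 lower as deposited, with the same limit on direction, and 0 passed, with a median log2 change of 0.09. RPS6, the target of the S6 kinases downstream of mTOR, had 87.6, 106 and 118 CPM with DMSO and 81.0, 104 and 93.7 CPM with WM-1119. The groups overlapped, and RPS6 had a log2 change of -0.16 ± 0.17 (SE), or -0.32 against comparison regions (limma adjusted p = 0.582). RPS24, a Diamond-Blackfan gene, had 57.0, 62.4 and 73.7 CPM with DMSO and 48.9, 63.7 and 64.1 CPM with WM-1119. RPS14, whose single copy in the myelodysplasia with loss of the long arm of chromosome 5 impairs red cell production, had 108, 104 and 152 CPM with DMSO and 118, 123 and 122 CPM with WM-1119. DMSO replicate 3 alone stood above the other 5 libraries there, and the log2 change was 0.02 ± 0.16 (SE). RPS19, the gene most often mutated in Diamond-Blackfan anaemia, had 164, 226 and 256 CPM with DMSO and 200.3, 253 and 243 CPM with WM-1119. RPS26, another gene of that disease, had means of 88.2 ± 8.47 CPM with DMSO and 92.8 ± 4.78 CPM with WM-1119 (n = 3 each, SD).

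RPSA, a small subunit protein also described as a laminin receptor, had 55.6, 83.2 and 102.5 CPM with DMSO and 80.6, 96.1 and 97.5 CPM with WM-1119. RPS27A, which encodes ubiquitin fused to a ribosomal protein, had 79.2, 110 and 149 CPM with DMSO and 122, 162 and 145 CPM with WM-1119. RPS29 had 115, 143 and 198 CPM with DMSO and 179, 199 and 211 CPM with WM-1119. The region of RPS27A also lies near an end of CLHC1, and that of RPS29 near an end of LRR1. In RPS27A and RPS29 DMSO replicate 3 lay among the WM-1119 values and the other 2 DMSO libraries below them. Their log2 changes were 0.37 ± 0.17 and 0.40 ± 0.16 (SE; limma adjusted p 0.362 and 0.340).

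Paralogues ending in L had a median of 70.1 CPM over the 4 with a region. RPL39L, best known from testis and cancer cells, had 19.5, 24.6 and 28.1 CPM with DMSO and 29.5, 25.01 and 27.8 CPM with WM-1119. RPL3L, a muscle form of RPL3, had 48.7, 38.5 and 33.2 CPM with DMSO and 44.7, 42.9 and 45.7 CPM with WM-1119. DMSO replicate 1 was the highest library there, unlike at the other members. The region (chr16:1941737-1943871) lies wholly outside RPL3L (chr16:1943974-1954689) and at the end of its neighbour MSRB1. Its signal may therefore belong to MSRB1 rather than to RPL3L. RPL36AL, at 195 CPM, and RPS27L, a p53 target at 97.9 CPM, lay above the lower quartile of all members, 88.7 CPM. None of the 4 passed, with log2 changes of 0.16 to 0.21.

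The 4 members on chromosome X ran from 40.6 CPM at RPS4X to 96.8 CPM at RPL10, with a median of 63.5 CPM, against 121 CPM for all members. RPS4X had 26.4, 38.5 and 51.1 CPM with DMSO and 40.3, 43.4 and 43.7 CPM with WM-1119. The region of RPL36A also lies near BTK, a kinase gene of blood cells, and DMSO replicate 3 was the highest library in it, at 74.1 CPM. Chromosome 8, known to be gained in this line, held RPL7, RPL8, RPL30 and RPS20. These 4 had means of 181 to 499.8 CPM, a median of 271 CPM, against 116 CPM for the 75 members elsewhere. Per kb of region their median was 81.2 CPM against 36.3 CPM. Among those 75, the 12 members on chromosome 19 had medians of 173 CPM and 47.5 CPM per kb. Whether copy number takes part in the values on chromosome 8 was not tested. RPL7 had 380, 455 and 566 CPM with DMSO and 505, 558 and 534 CPM with WM-1119, and did not pass (log2 change 0.21 ± 0.14, SE, limma adjusted p 0.425). RPL8, at 283 ± 58.9 and 296 ± 13.3 CPM, and RPL30, at 235 ± 70.7 and 271 ± 26.0 CPM (SD, n = 3 each; DMSO and WM-1119), had overlapping groups.

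Regions that reach another coding gene end cannot be divided between the genes. The 29 members of this kind had a median of 157 CPM and a width of 3825 bp, against 101.4 CPM and 2985 bp for the other 50. Their median log2 changes were 0.15 and 0.09. DMSO replicate 3 was the highest library in 21 of the 29 and in 42 of the 50. By promoter, DMSO replicate 3 was the highest library for 44 of the 53 genes with the pyrimidine tract and a region, and for 5 of the 10 without the tract, a small group. Members without a promoter sequence are in neither group, and over all 79 members the count was 63 (79.7%). Whether the tract takes part in this was not tested. The genes with the tract had a median mean of 120 CPM.

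Other genes of the translation machinery were read in the same way. Of a list of 27 translation factor and TOP messenger RNA genes, 26 had a tested region, 0 passed in either direction and 4 (15.4%) had an unadjusted limma p under 0.05, against 13.3% of all tested regions and 13.4% of gene-end regions in range. Their median was 125 CPM, 19 were higher and 7 lower as deposited and before any other scaling, and the median log2 change was 0.13. EEF1A1, the elongation factor that brings transfer RNA to the ribosome, had 264, 343 and 413 CPM with DMSO and 463, 464 and 452 CPM with WM-1119. The groups of EEF1A1 did not overlap, yet it did not pass (log2 change 0.46 ± 0.14, SE, limma adjusted p 0.283). HNRNPA1 followed at 0.33, and the lowest values were those of LARP1 at -0.47, which binds TOP messages, and EIF3F at -0.34, both in weak regions of 10.5 and 15.2 CPM. DMSO replicate 3 was the highest library in 16 of the 26 (61.5%), and 20 of the 26 were lower with it as the only control. FAU, a ribosomal protein gene with another symbol, lies at a region that also stands for the mitochondrial gene MRPL49 and cannot be divided between them. This region had 65.3, 89.3 and 108 CPM with DMSO and 85.9, 85.0 and 92.6 CPM with WM-1119.

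Of 77 mitochondrial ribosomal protein genes 74 were tested, over 73 separate regions because MRPL46 and MRPS11 share 1, with a median of 68.5 CPM. Of the 74, 0 passed and 5 (6.76%) had an unadjusted limma p under 0.05, against 13.3% of all tested regions, and the median log2 change was 0.11. MRPL41 at 0.46 and MRPS25 at 0.42 were the highest and MRPL43 at -0.25 and MRPS18A at -0.19 the lowest (log2 change). DMSO replicate 3 was the highest library in 36 of the 74 (48.6%). Against comparison regions the list's median was -0.03, beside -0.09 for the cytosolic set. Among 5 chaperones of single ribosomal proteins 0 passed, 0 had an unadjusted limma p under 0.05 and the median log2 change was 0.03. BCCIP at 0.16 and GRWD1 at 0.09 were highest, and TSR2, the partner of RPS26, was lowest at -0.24.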

How the data were processed

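Tools listed in the submitters' processing notes are Bowtie2, SAMtools, MACS2 and bedtools, with hg38 as the build and no versions. The sources used here do not give how regions were merged or how reads with several matches, such as those from pseudogene copies, were treated. The authors' deposited table holds 1 column per H3K9ac library. Its name says TPM, but the deposited values are CPM: each column sums to 1000000, and its low values are whole multiples of what 1 read is worth, whatever the width (100% within 0.02 reads). The count test left out WM-1119 replicate 2, whose step is close to a round value. CPM cannot show a genome-wide gain or loss. Starts were taken as counted from 0.

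limma 3.58.1 in R 4.3.3 modelled log2(CPM + 1), with its trend and robust options, in regions averaging 1 CPM or more, and p-values were adjusted over all of them. That scale understates changes of weak regions. Gene positions came from RefSeq GRCh38.p14, and readthrough genes named after a member did not count as neighbours. Gene-end comparison regions stood for other coding genes. Alternatives were pseudocounts of 0.1 and 5, filters, scalings, a replicate block, omitted libraries, sums over a gene's regions and edgeR 4.0.16. Both models were tested on simulated data. Python 3.11.15, pandas 2.3.3, numpy 2.4.6 and matplotlib 3.10.9 made tables and figures.

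Members and lists were chosen with earlier results of these data known. Named were 17 members and the paralogues whatever their values, the 5 highest and 5 lowest means, and the 5 largest changes each way, with the 2 largest each way per list. FAU, RPL13, RPL6, RPL24, RPS20 and other genes named for a count were chosen after their values were seen. No library was a copy of another (chi-square per degree of freedom at least 1.66).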

Additional observations from a re-analysis of the deposited data

How the results depend on the processing

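No member passed with other pseudocounts, no filter, a stricter filter of 10 CPM, quantile normalization, median centring, centring on strong gene ends, limma without trend and robust, sums over a gene's regions, edgeR, or without any 1 library other than DMSO replicate 3; with 1 library left out the count ran from 0 to 22, the 22 being without DMSO replicate 3. With a replicate block 1 passed, RPL27A (log2 change 0.45), where 496 of 44763 regions did. Deviations of same-numbered libraries correlated at 0.22, 0.05 and 0.33, and those of differently numbered libraries at -0.27 to 0.06. For each WM-1119 library the same-numbered DMSO library gave the highest value. Seen from the DMSO libraries this held for replicates 1 and 3. DMSO replicate 2 correlated at 0.0554 with WM-1119 replicate 1 and at 0.0528 with WM-1119 replicate 2. The labels state no pairing, and for that reason the main test did not use the numbers as pairs. The members' median log2 change of 0.11 became 0.89 with median centring, -0.11 with centring on strong gene ends, -0.19 with DMSO replicates 1 and 2 both omitted and 0.41 with edgeR; quantile normalization gave -0.06 and omission of 1 library -0.04 to 0.28. The median of all tested regions, -0.47 as deposited, was 0.30, -0.70 and 0.06 with the first 3 of these and 0.002 with quantile normalization. No named gene passed as reported. Of the 33 named members, 10 changed sign with quantile normalization, 6 with median centring, 17 with centring on strong gene ends, 26 with DMSO replicates 1 and 2 omitted, 6 with edgeR, 2 with summed regions, 9 without DMSO replicate 1, 2 without DMSO replicate 2, and 1 each without DMSO replicate 3 and WM-1119 replicate 1. RPL27A passed at 0.70 without DMSO replicate 3 and was -0.03 with it as the only control. All log2 changes above are of WM-1119 against DMSO. With 14 reads at the weakest member in DMSO replicate 1, small differences there were not detectable at this depth.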
